A study of Mus musculus with 21 samples.

Results

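The proteasome subunit genes examined here are 41 genes: Psma1 to Psma7 of the alpha ring, Psmb1 to Psmb7 of the constitutive beta ring, the immunoproteasome subunits Psmb8, Psmb9 and Psmb10, the ATPases Psmc1 to Psmc6, the non-ATPase genes Psmd1 to Psmd14 and the activators Psme1 to Psme4. They were taken by name from the 19938 genes that the array's annotation links to at least 1 probeset of their own. All 41 passed the filter on dim genes, which left 13956 genes for testing. Expression was measured on Affymetrix Mouse Gene 1.0 ST microarrays in satellite cells, the stem cells of skeletal muscle, sorted as YFP+ cells from hindlimb muscle and not cultured. Every mouse carried Pax7CreER/+ and Rosa26REYFP/+, so that tamoxifen, given at least 2 weeks earlier, switched on the YFP tracer and any recombination in Pax7-expressing cells. Mice were 3-5 months old, and each pool held cells of 3 to 4 mice.

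Contralateral satellite cells (CSC) came from the leg opposite a muscle injured with BaCl2, and quiescent satellite cells (QSC) from noninjured mice. The groups were WT CSC at 2.5 days after injury (3 pools), WT CSC at 28 days (1 pool), TSC1flox/flox QSC (1 pool, TSC1 KO), Rptrflox/flox CSC at 2.5 days and QSC (1 pool each, Rptor KO), cMetflox/flox CSC at 2.5 days and QSC (1 pool each, cMet KO), and WT QSC (3 pools). Strain was mixed C57BL6 in the WT, TSC1 and Rptor groups and C57BL6 mixed FVB in the cMet groups, so that strain and the cMet genotype cannot be told apart. Of the 12 pools, 9 had 2 arrays, which were averaged, and 3 had 1 array. The 6 single-pool groups have no spread of their own: their tests assume that a pool of any genotype varies as the WT pools do.

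The proteasome is the protease that degrades proteins tagged with ubiquitin. Its barrel-shaped core stacks alpha rings, which gate the entrance, around beta rings, in which Psmb5, Psmb6 and Psmb7 carry the proteolytic sites. In cells exposed to interferon, Psmb8, Psmb9 and Psmb10 can take the places of these 3 subunits and form the immunoproteasome, which shapes peptides for antigen presentation. The regulatory particle sits on the core: its 6 ATPases unfold substrates, and its non-ATPase subunits bind, deubiquitinate and position them. Psme1 and Psme2 form an interferon-inducible activator, while Psme3 and Psme4 are nuclear activators. In skeletal muscle the ubiquitin-proteasome system is known for its part in fibre atrophy, and proteasome activity is known to be needed for satellite cells to be maintained. mTORC1, the growth kinase that contains Raptor (Rptor) and is inhibited by TSC1, has been reported in mouse cells to raise proteasome subunit expression through Nfe2l1.

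The sequences just upstream of the paired catalytic genes are shown for Psmb5, Psmb6 and Psmb9, whose differences are compared further on. RefSeq promoter windows (build GRCm38.p6, 250 bases before and 50 after the annotated start) were found for 35 of the 41 genes, in 38 windows. Capitals mark the antioxidant response element core TGACNNNGC, bound by the Nfe2l1 and Nfe2l2 factors, in Psmb5 and Psmb6, and a CCAAT box, bound by NF-Y, in Psmb9, where it appears as its reverse complement.
Psmb5: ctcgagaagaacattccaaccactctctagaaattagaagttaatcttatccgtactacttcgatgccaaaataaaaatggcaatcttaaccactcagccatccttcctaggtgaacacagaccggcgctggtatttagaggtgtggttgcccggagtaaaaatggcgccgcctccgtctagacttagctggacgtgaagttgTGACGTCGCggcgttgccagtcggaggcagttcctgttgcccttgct
Psmb6: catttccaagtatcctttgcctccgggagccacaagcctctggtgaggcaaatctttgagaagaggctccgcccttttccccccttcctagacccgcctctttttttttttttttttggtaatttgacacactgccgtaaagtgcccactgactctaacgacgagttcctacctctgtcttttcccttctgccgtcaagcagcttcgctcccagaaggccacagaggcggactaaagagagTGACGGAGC
Psmb9: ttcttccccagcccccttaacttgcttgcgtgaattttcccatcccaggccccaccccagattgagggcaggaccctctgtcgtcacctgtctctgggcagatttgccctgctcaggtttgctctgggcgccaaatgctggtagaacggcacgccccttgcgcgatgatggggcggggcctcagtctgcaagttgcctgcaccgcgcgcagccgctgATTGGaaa
The Psmb5 stretch is chr14:54617996-54618245 on the minus strand, the Psmb6 stretch chr11:70525107-70525356 on the plus strand and the Psmb9 stretch chr17:34187331-34187555 on the minus strand. The Psmb9 stretch is 225 bases long because Tap1, a peptide transporter gene of antigen presentation, starts on the other side of it. Counted on both strands, the antioxidant response element core was in 6 of the 38 windows of proteasome genes (15.8%), against 12.4% of all 32851 windows in the table. The CCAAT box was in 13 of 38 (34.2%), against 37.4% of all windows. The interferon-stimulated response element (GAAA, any 2 bases, GAAA) was in 4 of 38 (10.5%), against 3.44% of all windows: Psmb3, Psmd4, Psmd9 and Psme1, none of them an immunoproteasome gene. These are matches of letters only, and none was tested as a binding site.

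Technical arrays of a pool correlated at 0.973 to 0.998 over all genes, lowest in Rptor KO CSC (0.973) and then WT CSC pool 1 (0.978). Array medians lay between 7.03 and 7.21 on the log2 scale. The targeted genes did not all follow the labels. Tsc1 was at 8.16 in TSC1 KO QSC, below the WT QSC pools at 8.66, 8.34 and 8.69. Rptor was at 8.85 in Rptor KO CSC, below the WT CSC pools at 9.84, 9.47 and 9.43, but at 9.19 in the pool labelled Rptor KO QSC it lay within the WT QSC pools at 9.58, 8.91 and 9.29. Met was at 10.13 in cMet KO CSC, below the WT CSC pools at 10.94, 10.63 and 10.84, while in the pool labelled cMet KO QSC it was at 10.25, above the WT QSC pools at 9.93, 10.11 and 10.00. None of these differences between a floxed pool and its WT group passed the limma test. Met was itself higher in WT CSC than in WT QSC (0.79 ± 0.13; limma, adjusted p = 0.00499). Its value of 10.13 in cMet KO CSC, although below WT CSC, was above every WT QSC pool. The sources used here do not say which exons were deleted, so a probeset that reads the rest of a transcript checks no label. All 8 satellite cell markers were above the filter. Of these, 4 (Pax7, Calcr, Chodl and Spry1) were lower in WT CSC than in WT QSC by limma and none higher, and the mean of the 8 was 10.81 to 11.01 in the WT CSC pools and 11.40 to 11.80 in the WT QSC pools.

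Most proteasome subunit genes were higher in satellite cells of the uninjured leg 2.5 days after a distant injury. In WT CSC against WT QSC, 25 of the 41 genes rose, none fell and 16 did not pass (limma moderated test, adjusted p under 0.05 over 13956 genes). Of all genes tested, 10.6% rose and 7.36% fell, 18% in all. The median log2 difference was 0.68 over the 41 genes, a 1.60-fold increase, and -0.05 over all genes tested. The mean log2 signal of the 41 genes was 10.22, 10.21 and 10.24 in the WT CSC pools, against 9.57, 9.49 and 9.72 in the WT QSC pools. In 31 of the 41 genes every WT CSC pool lay above every WT QSC pool, and in none did every CSC pool lie below. Over all genes tested, 18.7% had all CSC pools above and 19.1% had all CSC pools below. Because these are bulk samples, a change in the mix of cells and a change in RNA per cell cannot be told apart.

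**Figure D1:**
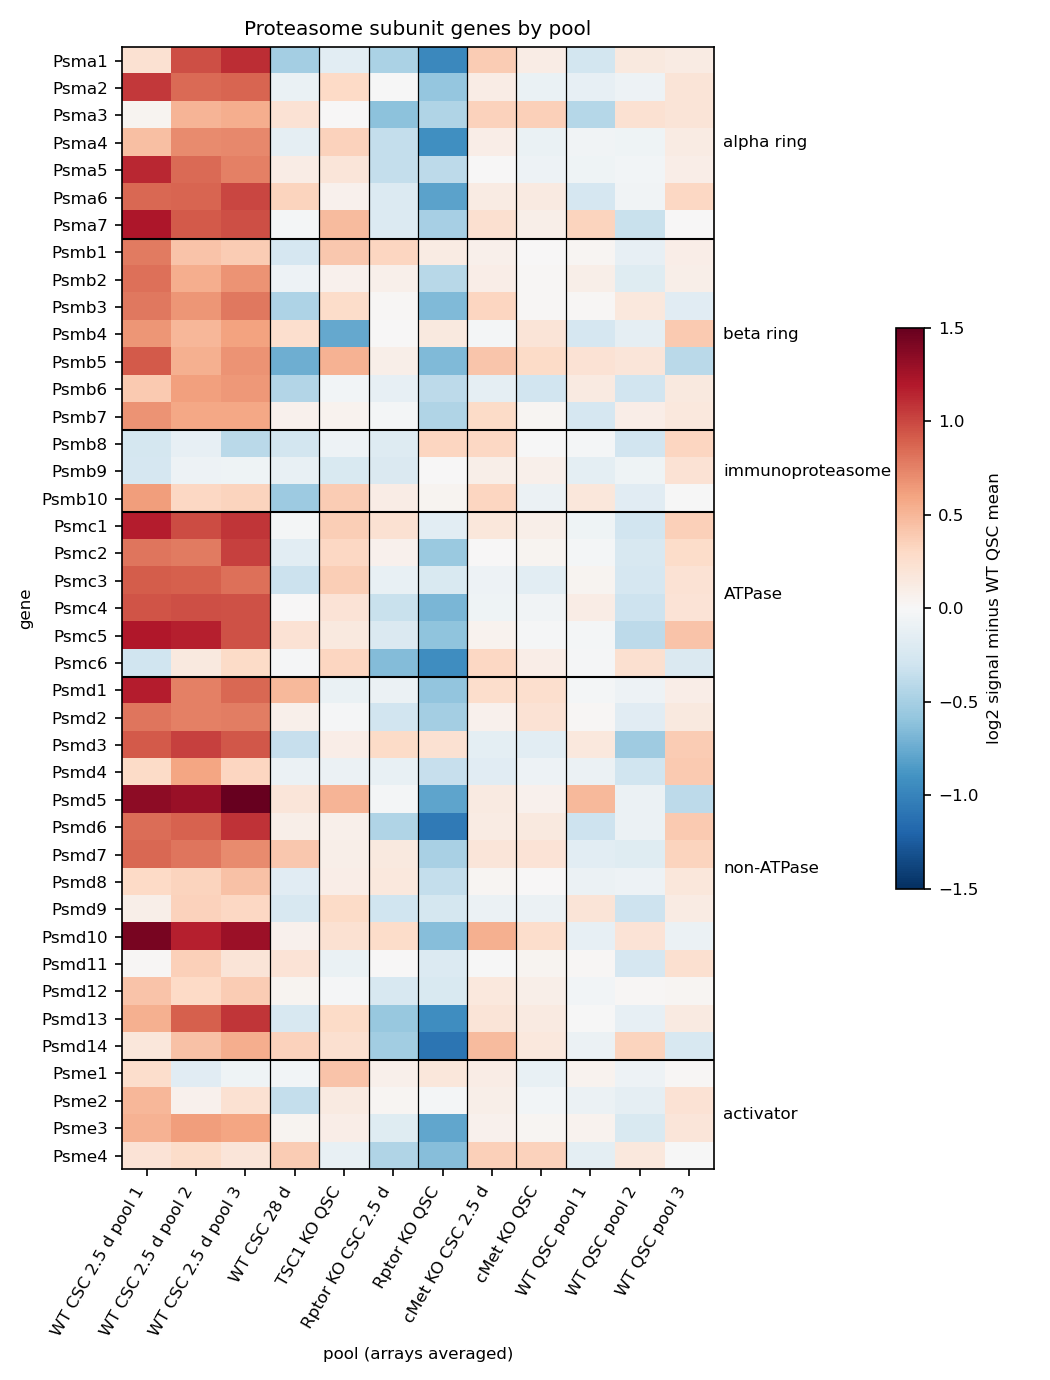
Log2 signal of each proteasome subunit gene (rows, by class) in each of the 12 pools (columns) minus the gene's mean over the 3 WT QSC pools, in colour from blue (lower) to red (higher). The 3 WT CSC pools are red for most genes outside the immunoproteasome rows, and the pool labelled Rptor KO QSC is blue for 34 of the 41 genes.

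In the alpha ring, which gates the core, 5 of 7 genes rose, with a median difference of 0.91. Psma2 had 9.94, 9.72 and 9.75 in the WT CSC pools, against 8.76, 8.80 and 9.08 in the WT QSC pools. Its difference was 0.93 ± 0.14 (standard error; limma, adjusted p = 0.00305). Psma5 had 9.69, 9.40 and 9.30 in WT CSC, against 8.49, 8.51 and 8.65 in WT QSC, a difference of 0.91 ± 0.14 (limma, adjusted p = 0.00347). The CSC pools of both genes stood above all QSC pools, and WT CSC pool 1 was the highest. Psma7, Psma6 and Psma4 rose by 1.03, 0.91 and 0.63. Psma1 had a difference of 0.77 ± 0.23 that missed the threshold (limma, adjusted p = 0.0511): its CSC pools did not overlap the QSC pools, but WT CSC pool 1, at 10.34, was close to the highest QSC pool, at 10.26. Psma3 had 10.97, 11.43 and 11.48 in WT CSC and 10.50, 11.16 and 11.13 in WT QSC, and these overlapped.

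In the constitutive beta ring 6 of 7 genes rose, with a narrow range of differences from 0.53 to 0.75. Psmb3, a structural subunit, had 12.59, 12.46 and 12.59 in WT CSC, against 11.82, 11.96 and 11.63 in WT QSC, a difference of 0.75 ± 0.13 (limma, adjusted p = 0.00652). Psmb2, another subunit with no proteolytic site, had 11.42, 11.15 and 11.27 in WT CSC, against 10.69, 10.42 and 10.69 in WT QSC, and differed by 0.68 ± 0.14 (limma, adjusted p = 0.0119). No CSC pool of any of the 7 genes overlapped a QSC pool. Psmb4, which in yeast is the last subunit to join the beta ring, differed by 0.59 ± 0.18 and just missed the threshold (limma, adjusted p = 0.0501). The 3 constitutive catalytic genes are described with their immunoproteasome counterparts.

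Of the ATPases, the motor that unfolds substrates, 5 of 6 rose, with a median difference of 0.92. Psmc1 had 10.19, 9.99 and 10.09 in WT CSC, against 8.95, 8.72 and 9.37 in WT QSC, a difference of 1.08 ± 0.17 (limma, adjusted p = 0.00417). Psmc4 had 10.56, 10.59 and 10.58 in WT CSC, against 9.73, 9.31 and 9.82 in WT QSC, a difference of 0.96 ± 0.16 (limma, adjusted p = 0.00425). In both genes no CSC pool overlapped a QSC pool. Psmc5, Psmc3 and Psmc2 rose by 1.11, 0.88 and 0.87. Psmc6, the remaining ATPase of the ring, had 10.02, 10.47 and 10.60 in WT CSC and 10.30, 10.55 and 10.10 in WT QSC, with a difference of 0.05 ± 0.19 (limma, adjusted p = 0.889). Its pools overlapped, and the sign of its difference turned when WT QSC pool 3, WT CSC pool 2 or WT CSC pool 3 was left out.

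Of the 14 non-ATPase genes 8 rose. The largest differences of all 41 genes were in Psmd5 and Psmd10, which are chaperones for the assembly of the ATPase base of the regulatory particle and leave it before it is complete. Psmd10, also called gankyrin, had 9.39, 9.13 and 9.26 in WT CSC, against 7.84, 8.18 and 7.89 in WT QSC, a difference of 1.29 ± 0.14 and 2.44-fold (limma, adjusted p = 0.000687). Psmd5 had 9.44, 9.40 and 9.59 in WT CSC, against 8.59, 8.01 and 7.71 in WT QSC, a difference of 1.37 ± 0.21 and 2.59-fold (limma, adjusted p = 0.00326). The QSC pools of Psmd5 were widely spread, yet the lowest CSC pool stood above the highest of them. The third known base chaperone, Psmd9, differed by 0.25 ± 0.16 and did not pass (limma, adjusted p = 0.338). The large scaffolds Psmd1 and Psmd2 rose by 0.93 and 0.77. Psmd3, Psmd6, Psmd13 and Psmd7 of the lid rose by 0.96, 0.94, 0.84 and 0.79.

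The non-ATPase genes that did not pass included the ubiquitin receptor Psmd4, at 0.40 ± 0.19, and the deubiquitinase Psmd14, at 0.38 ± 0.18. The lid subunits Psmd11, Psmd12 and Psmd8 differed by 0.19, 0.37 and 0.36. All of these differences were positive and none passed. Among the activators only Psme3, a nuclear activator that opens the core without ATP, rose: it had 11.11, 11.22 and 11.19 in WT CSC, against 10.64, 10.36 and 10.77 in WT QSC, a difference of 0.58 ± 0.14 (limma, adjusted p = 0.023). Psme4 had 10.83, 10.89 and 10.80 in WT CSC, against 10.47, 10.77 and 10.61 in WT QSC, and did not pass (0.22 ± 0.13; limma, adjusted p = 0.286), although its groups did not overlap. The interferon-inducible activator genes overlapped between groups. Psme1 had 9.70, 9.27 and 9.37 in WT CSC and 9.49, 9.36 and 9.46 in WT QSC, with a difference of 0.01 ± 0.15, and its sign turned when WT QSC pool 2 or WT CSC pool 1 was left out. Psme2 had 10.41, 9.97 and 10.14 in WT CSC and 9.83, 9.78 and 10.13 in WT QSC, with a difference of 0.26 ± 0.16.

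**Figure D2:**
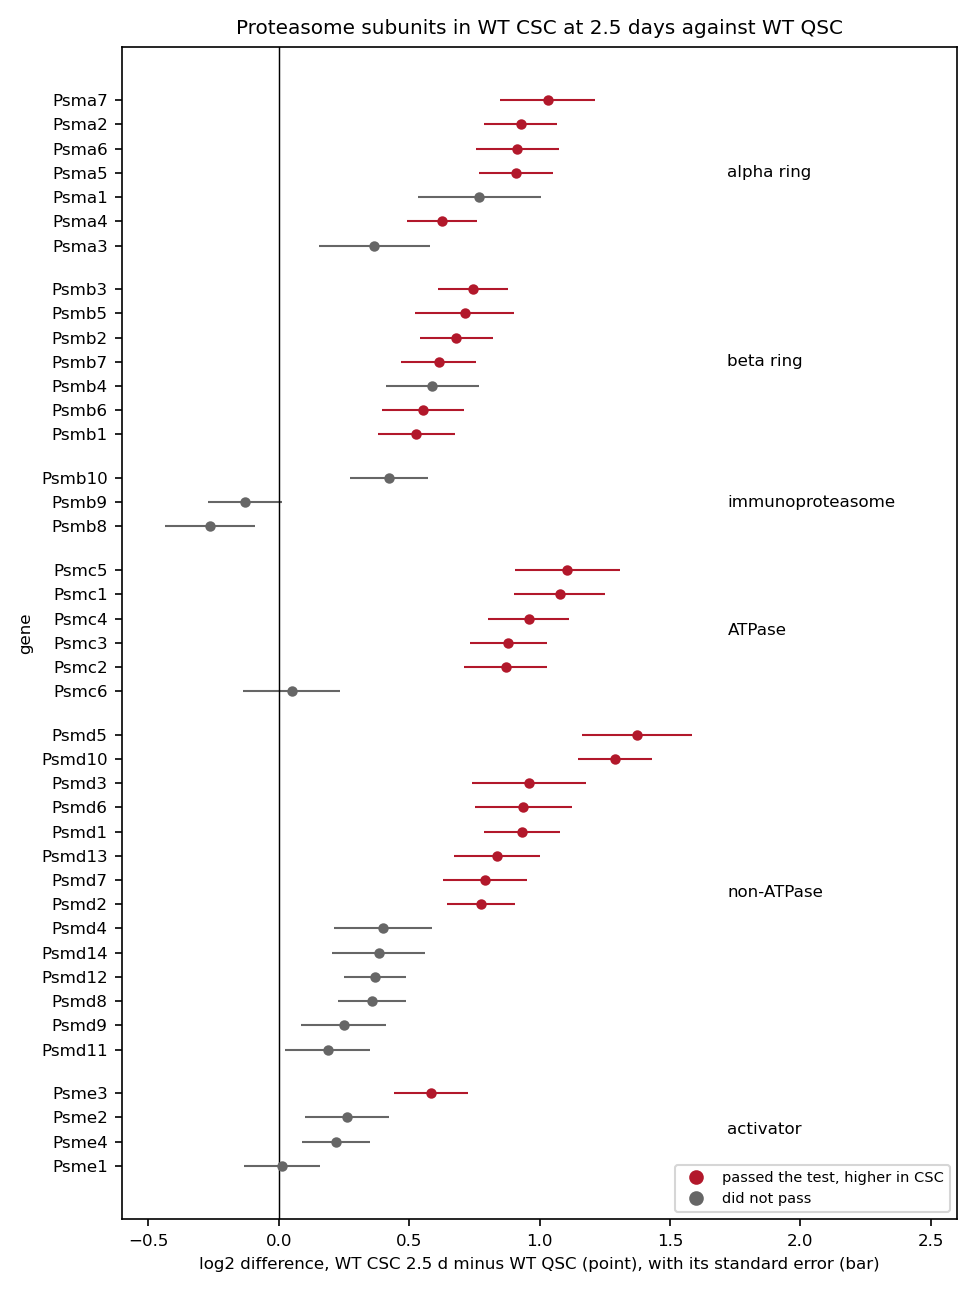
Log2 difference between WT CSC at 2.5 days and WT QSC (horizontal axis; bars are the standard error of the limma fit, 3 pools a group) for each proteasome subunit gene, grouped by class. The 25 genes in red passed the test and all lie right of 0; Psmb8 and Psmb9 of the immunoproteasome lie left of it and did not pass.

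None of the 3 immunoproteasome genes passed in WT CSC against WT QSC, while their 3 constitutive partners did. Psmb5, the chymotrypsin-like subunit, had 12.14, 11.75 and 11.89 in WT CSC, against 11.44, 11.39 and 10.81 in WT QSC, and rose by 0.71 ± 0.19 (limma, adjusted p = 0.0331). Its counterpart Psmb8 had 6.61, 6.75 and 6.46 in WT CSC, against 6.84, 6.58 and 7.19 in WT QSC, a difference of -0.26 ± 0.17 that did not pass (limma, adjusted p = 0.338). The Psmb5 groups were separate, whereas the Psmb8 CSC pools overlapped the QSC pools. The WT CSC values of Psmb8 were close to the filter on dim genes, at log2 6.45. Psmb6, the caspase-like subunit, had 10.76, 10.97 and 11.01 in WT CSC, against 10.49, 10.07 and 10.51 in WT QSC, and rose by 0.55 ± 0.16 (limma, adjusted p = 0.0411). Psmb9, its counterpart, had 7.84, 8.02 and 8.03 in WT CSC and 7.94, 8.03 and 8.31 in WT QSC, a difference of -0.13 ± 0.14 (limma, adjusted p = 0.583). Psmb7, the trypsin-like subunit, had 11.03, 10.94 and 10.94 in WT CSC, against 10.11, 10.45 and 10.51 in WT QSC, and rose by 0.61 ± 0.14 (limma, adjusted p = 0.0198). Psmb10, its counterpart, was the exception among the immunoproteasome genes: it had 8.83, 8.50 and 8.52 in WT CSC, against 8.36, 8.03 and 8.19 in WT QSC. All 3 of its CSC pools were above the QSC pools, with a difference of 0.42 ± 0.15 that did not pass (limma, adjusted p = 0.0824).

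The shift of each immunoproteasome gene relative to its partner was computed within pools, so that only the change of the difference between groups was read. The Psmb8 minus Psmb5 difference was 0.98 lower in WT CSC than in WT QSC (shift -0.98), and the Psmb9 minus Psmb6 difference 0.68 lower (shift -0.68). Psmb8 was near the filter on dim genes in WT CSC, so its own part in the first shift is uncertain. In both pairs the 3 WT CSC pools lay below the 3 WT QSC pools. The two-sided exact permutation test gave p = 0.1 for each, the smallest that 3 against 3 pools can give, so this design cannot reach 0.05. The Psmb10 minus Psmb7 shift was -0.19 (exact permutation p = 0.6), and without WT QSC pool 1 it was 0.020. The Benjamini-Hochberg adjusted values over the 3 pairs were 0.15, 0.15 and 0.6.

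**Figure D3:**
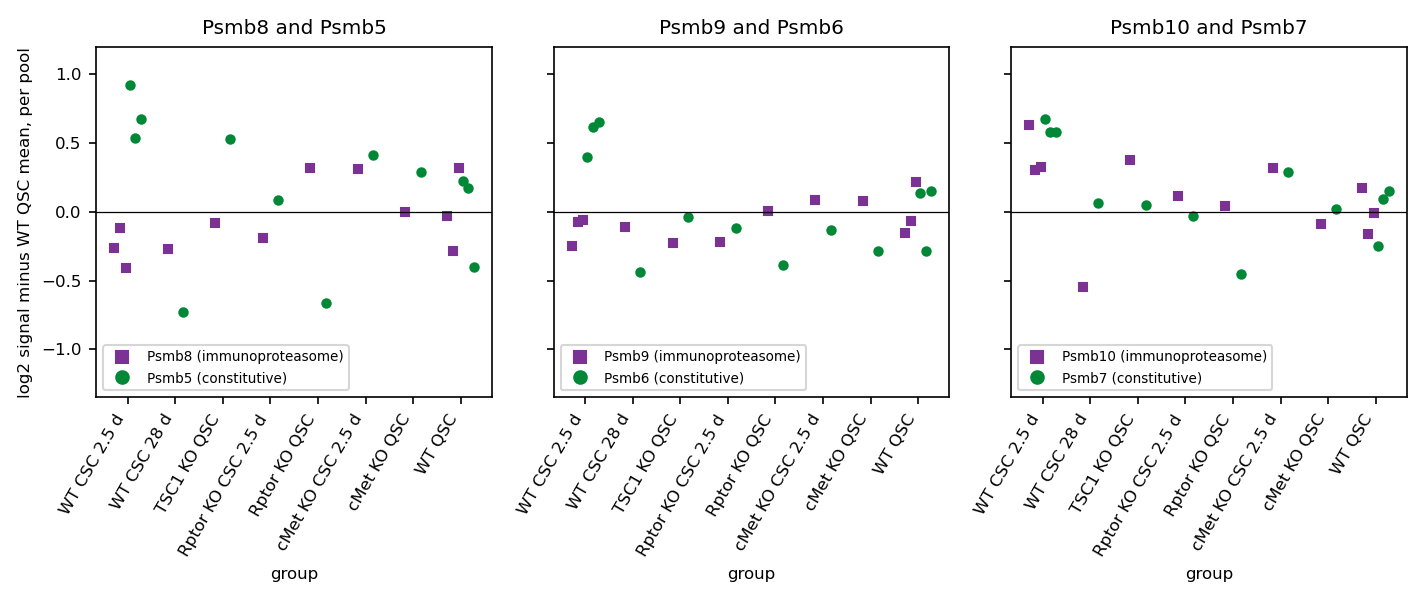
Log2 signal of each immunoproteasome gene (purple squares) and its constitutive partner (green circles), each minus its own WT QSC mean, in every pool by group. In the 3 WT CSC pools Psmb5 and Psmb6 lie above 0 while Psmb8 and Psmb9 lie below it, and Psmb10 lies above 0 with Psmb7.

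Of the 25 genes that rose, 16 passed in each of the 6 fits that left out a WT pool: Psma2, Psma5, Psma6, Psma7, Psmb3, Psmc1, Psmc2, Psmc3, Psmc4, Psmc5, Psmd1, Psmd2, Psmd5, Psmd7, Psmd10 and Psmd13. Without WT CSC pool 3 the count was 16. The catalytic genes were among the less stable: Psmb5 was lost without WT QSC pool 3 and each WT CSC pool, Psmb6 without WT QSC pool 2 and each WT CSC pool, and Psmb7 without each WT CSC pool. Psme3 and Psmd3 were lost without each WT CSC pool, Psmd6 without WT CSC pool 3, Psma4 without WT CSC pool 2 or 3, Psmb2 without WT CSC pool 1 or 3, and Psmb1 without each WT pool except WT QSC pool 3. Markers of other cells also differed between these groups. Of 10 endothelial markers 7 fell (list mean 7.84 to 8.31 in WT CSC, 8.85 to 9.59 in WT QSC), and 4 of 7 fibro-adipogenic and 4 of 8 pericyte markers fell. Of 8 tested mature fibre markers 3 rose (mean of all 10 listed 8.06 to 8.38 in WT CSC, 7.31 to 8.32 in WT QSC), and none of 9 tested macrophage markers passed. The part of these cells in the proteasome differences was not tested.

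At 28 days the mean of the proteasome genes lay within the range of the noninjured pools. The mean of the 41 genes was 9.57, 9.49 and 9.72 in the noninjured WT QSC pools, 10.22, 10.21 and 10.24 in the WT CSC pools at 2.5 days, and 9.54 in the WT CSC pool at 28 days. Against WT CSC at 2.5 days, 18 of the 41 genes were lower in the pool at 28 days and none were higher (limma), where 6.32% of all genes were lower and 2.06% higher. The median difference was -0.75, against 0.04 for all genes tested. The pool at 28 days lay below all 3 WT CSC pools in 33 genes, which 34.8% of all genes did.

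The smallest p-values at 28 days were spread over the core and the regulatory particle. Psmb3 was at 11.34 in WT CSC at 28 days, against 12.59, 12.46 and 12.59 in WT CSC at 2.5 days (difference -1.21 ± 0.19; limma, adjusted p = 0.00714). Psmd10 was at 8.03 in WT CSC at 28 days, against 9.39, 9.13 and 9.26 in WT CSC at 2.5 days (difference -1.22 ± 0.20; limma, adjusted p = 0.00895). Psmc3 was at 8.79 in WT CSC at 28 days, against 10.03, 10.02 and 9.94 in WT CSC at 2.5 days (difference -1.21 ± 0.21; limma, adjusted p = 0.0109). All 3 genes were back within or below the range of the WT QSC pools. Psmb5 was at 10.48 in WT CSC at 28 days, against 12.14, 11.75 and 11.89 in WT CSC at 2.5 days (difference -1.44 ± 0.27; limma, adjusted p = 0.0147). Psma2 was at 8.77 in WT CSC at 28 days, against 9.94, 9.72 and 9.75 in WT CSC at 2.5 days (difference -1.03 ± 0.20; limma, adjusted p = 0.0161). Psmd13 was at 8.99 in WT CSC at 28 days, against 9.76, 10.13 and 10.31 in WT CSC at 2.5 days (difference -1.08 ± 0.23; limma, adjusted p = 0.0245). Psmb5 at 28 days was also below all 3 WT QSC pools, at 11.44, 11.39 and 10.81. Psmb10, at 7.65, was the only immunoproteasome gene that fell (difference -0.97 ± 0.21; limma, adjusted p = 0.0252), and the differences of Psmb8 and Psmb9 were -0.01 and 0.02. Psmb8 was close to the filter on dim genes in both groups, so it had little room to fall. The other genes that fell were Psma1, Psma4, Psma5, Psma7, Psmb6, Psmc1, Psmc2, Psmc4, Psmd2, Psmd3 and Psmd5, by 0.70 to 1.30 on the log2 scale. No activator gene passed.

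Psmb3, Psmb5, Psmc3 and Psmd10 kept their call in every fit without a WT pool. The count was 9 without WT CSC pool 1, 5 without pool 2, 4 without pool 3 and 11 with no filter on dim genes, and these 3 WT CSC pools are the same that enter the comparison with WT QSC. Against WT QSC, none of the 41 genes passed in the pool at 28 days (0% of all genes passed), and 4 had an unadjusted p under 0.05 by limma: Psmb5, Psmb10 and Psmb3 were lower, by -0.73, -0.55 and -0.46, and Psmd1 was higher, by 0.49. Of all genes, 3.2% had such a p and were lower and 1.36% were higher. The pool lay below all 3 WT QSC pools in 11 of the 41 genes, above them in 7 and within their range in 23, where 19% and 19.8% of all genes lay below and above. Mature fibre markers were lower in the pool at 28 days as well, with a median difference of -1.07 from WT CSC and 3 of 8 past the test. Its endothelial list mean, 8.03, lay within the WT CSC pools (7.84 to 8.31) and below the WT QSC pools (8.85 to 9.59). Its macrophage list mean, 6.92, lay below the WT CSC pools (7.48 to 7.52) and the WT QSC pools (7.15 to 7.72). Its fibro-adipogenic list mean, 9.97, lay between those of the WT CSC pools (9.35 to 9.84) and the WT QSC pools (10.25 to 10.52). The part of these cells in the result was not tested.

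Loss of TSC1 without injury did not give a proteasome change that passed. In TSC1 KO QSC against WT QSC, 0 of the 41 genes passed by limma, as 0.0143% of all genes did. With each array entered and the pool as a random block, 1 of 41 passed, as lower. That fit takes repeat arrays of a pool as observations, so it adds no pools. Of the 41 differences, 30 were positive. The median difference was 0.13, against 0.04 for all genes. The pool lay above all 3 WT QSC pools in 17 genes (30.3% of all genes did) and below them in 3 (23.2% did). The mean of the 41 genes was 9.73 in TSC1 KO QSC, just above the highest WT QSC pool at 9.72. Psmb5 was at 11.74 in TSC1 KO QSC, against 11.44, 11.39 and 10.81 in WT QSC, with a difference of 0.53 ± 0.27 (limma, adjusted p = 0.599). Psme1, of the interferon-inducible activator, was at 9.87 in TSC1 KO QSC, against 9.49, 9.36 and 9.46 in WT QSC (0.43 ± 0.21; limma, adjusted p = 0.585). The 6 ATPases were all positive, from 0.15 to 0.37.

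Psmb4 went the other way. It was at 10.22 in TSC1 KO QSC, against 10.74, 10.86 and 11.39 in WT QSC, below every pool of the series, with a difference of -0.77 ± 0.25 and the smallest p-value of the 41 genes in this comparison (limma, unadjusted p = 0.0133, adjusted p = 0.468). It was the only gene of the 41 with an unadjusted p under 0.05, which 7.07% of all genes had as higher and 1.75% as lower. Psmb8 and Psmb9 were at 6.79 and 7.87, within and just below the WT QSC pools, and Psmb10 was at 8.57, above them. Mature fibre markers were higher in this pool, with a median difference of 0.74 in 8 genes and none past the test. Single markers of other lists differed too, among them Abcc9 (pericyte) by 2.09 ± 0.37 and Ptprc (macrophage list) by -0.79 ± 0.21, neither past the test. The endothelial and macrophage list means, 8.89 and 7.23, lay within the WT QSC pools (8.85 to 9.59 and 7.15 to 7.72). The part of these cells was not tested.

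In the pool labelled Rptor KO QSC 34 of the 41 genes had negative differences from WT QSC, and none passed. The mean of the 41 genes was 9.15, below every other pool, against 9.57, 9.49 and 9.72 in WT QSC. By limma 0 of 41 passed, as 0.122% of all genes did. Their median difference was -0.49, against 0.00 for all genes tested. An unadjusted p under 0.05 was found for 18 genes, all lower, where 7.25% of all genes were lower and 4.02% higher at that level. The pool lay below all 3 WT QSC pools in 29 genes, which 26.5% of all genes did, and above them in 3, which 24.9% did. Psma4 had the smallest p-value, at 8.51 in the pool labelled Rptor KO QSC, against 9.37, 9.36 and 9.55 in WT QSC (-0.92 ± 0.19; limma, adjusted p = 0.144). Psmd14, the deubiquitinase, was at 9.48, against 10.48, 10.90 and 10.33 in WT QSC (-1.10 ± 0.25; limma, adjusted p = 0.172).

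By class, all 7 alpha ring genes and all 6 ATPases were negative, with medians of -0.58 each. The 3 immunoproteasome genes were not lower: Psmb8, Psmb9 and Psmb10 differed by 0.32, 0.01 and 0.05, while Psmb5, Psmb6 and Psmb7 differed by -0.67, -0.39 and -0.45. Psmb8 was at 7.19, level with the highest WT QSC pool. Its WT QSC pools, at 6.84, 6.58 and 7.19, were not far above the filter on dim genes, at log2 6.45. A fall in Psmb8 could thus be hard to see. Psmd3, Psmb1 and Psmb4 were among the other positive ones, at 0.23, 0.12 and 0.14. The median difference of the mature fibre markers in the pool was -0.32 and that of the macrophage markers 0.11, with none past the test. With each array entered and the pool as a random block, 5 of the 41 genes passed as lower. The added observations in that fit are repeat arrays, not further pools.

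Set against each other, the TSC1 KO QSC and Rptor KO QSC pools share no WT pool. The median difference of TSC1 KO QSC from the pool labelled Rptor KO QSC was 0.56, against 0.05 for all genes, and 37 of the 41 genes were positive. Only Psma4 passed, at 9.78 in TSC1 KO QSC, against 8.51 in Rptor KO QSC (1.27 ± 0.23, 2.41-fold; limma, adjusted p = 0.0402), where 1.26% of all genes rose and 1.55% changed in either direction. An unadjusted p under 0.05 was found for 18 genes as higher, which 13.2% of all genes had, and for Psmb4 as lower, which 5.77% had. Psmb4 was at 10.22 in TSC1 KO QSC, against 11.14 in Rptor KO QSC (-0.91 ± 0.31; limma, adjusted p = 0.159). The Psma4 call was lost without each WT CSC pool, pools that enter this comparison only through the estimate of spread, and the count was 2 without WT QSC pool 1 and 3 without WT QSC pool 2 or 3. It was 12 with each array entered and the pool as a random block, a fit that adds repeat arrays and no pools. It was 3 with the first array of each pool and 0 with no filter on dim genes. The mature fibre markers had a median difference of 1.28 with 1 of 8 higher past the test, and their part was not tested.

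After a distant injury, proteasome genes were lower in Rptor KO CSC than in WT CSC. By limma 14 of the 41 genes were lower and none higher, where 2.97% of all genes were lower and 0.924% higher, and the median difference was -0.73, against -0.01 for all genes. The pool lay below all 3 WT CSC pools in 38 of 41 genes, which 38.3% of all genes did. Psma5 was at 8.19 in Rptor KO CSC, against 9.69, 9.40 and 9.30 in WT CSC (-1.27 ± 0.20; limma, adjusted p = 0.0151). Psmd13 was at 8.67 in Rptor KO CSC, against 9.76, 10.13 and 10.31 in WT CSC (-1.40 ± 0.23; limma, adjusted p = 0.0182). Psmc4 was at 9.29 in Rptor KO CSC, against 10.56, 10.59 and 10.58 in WT CSC (-1.29 ± 0.22; limma, adjusted p = 0.0199). Each of these was below every WT CSC pool and also below every WT QSC pool. Psmd2 was at 10.62 in Rptor KO CSC, against 11.71, 11.66 and 11.67 in WT CSC (-1.06 ± 0.18; limma, adjusted p = 0.02). Psmd6 was at 8.55 in Rptor KO CSC, against 9.83, 9.88 and 10.08 in WT CSC (-1.38 ± 0.26; limma, adjusted p = 0.0283). Psma4 was at 9.07 in Rptor KO CSC, against 9.87, 10.14 and 10.15 in WT CSC (-0.98 ± 0.19; limma, adjusted p = 0.0297). The other 8 genes that passed were Psma2, Psma6, Psma7, Psmc3, Psmc5, Psmd1, Psmd5 and Psmd10. No beta ring, immunoproteasome or activator gene passed.

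None of the 14 calls held in every fit without a WT pool: the count was 4 without WT CSC pool 1 (3 of them among the 14) and 0 without WT CSC pool 2 or 3. Entering each array with the pool as a random block gave 25, but that fit adds repeat arrays and no pools. The arrays of Rptor KO CSC correlated at 0.973, the lowest of the pools with repeated arrays. In the same pool 7 of 9 tested macrophage and monocyte markers were higher than in WT CSC (median 1.99; mean of all 10 listed 9.37, against 7.48 to 7.52 in WT CSC), and 1 of 8 tested mature fibre markers was lower (median -1.17; mean of all 10 listed 7.23, against 8.06 to 8.38). Their part in the proteasome values was not tested. The difference between Rptor KO CSC and the pool labelled Rptor KO QSC was positive in 34 of the 41 genes, with a median of 0.35 and 0 genes past the limma test (0.258% of all genes passed), or 1, higher, with the random block. An unadjusted p under 0.05 was found for 8, all higher, where 3.09% of all genes were higher and 1.97% lower at that level. The smallest p-value was that of Psmd10, at 8.24 in Rptor KO CSC and 7.33 in Rptor KO QSC (0.91 ± 0.25; limma, adjusted p = 0.438).

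Whether the response to injury itself differed without Rptor was tested as an interaction, the Rptor KO difference between CSC and QSC minus the WT difference. No gene of the 41 passed by limma (0% of all genes passed), 2 had an unadjusted p under 0.05 and were lower (2.91% of all genes did), and the median was -0.28. Psma5 had the smallest p-value, at -0.88 ± 0.28 (limma, adjusted p = 0.874). For Psmb5 and Psmb3 the response differences were 0.04 and -0.07. This comparison uses the pool labelled Rptor KO QSC, in which Rptor was not lower than in WT QSC.

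In the pool labelled cMet KO CSC, from mice with a floxed gene for the receptor of hepatocyte growth factor, 5 of the 41 genes were lower than in WT CSC and none higher by limma, where 3.35% of all genes were lower and 3.4% higher. The median difference was -0.57, against 0.00 for all genes, and the pool lay below all 3 WT CSC pools in 31 genes, which 35% of all genes did. Psmc4 was at 9.56 in cMet KO CSC, against 10.56, 10.59 and 10.58 in WT CSC (-1.02 ± 0.22; limma, adjusted p = 0.0308). Psmc3 was at 9.03 in cMet KO CSC, against 10.03, 10.02 and 9.94 in WT CSC (-0.96 ± 0.21; limma, adjusted p = 0.0308). Psma5 was at 8.56 in cMet KO CSC, against 9.69, 9.40 and 9.30 in WT CSC (-0.90 ± 0.20; limma, adjusted p = 0.0328). A pair of ATPases and an alpha ring gene thus had the smallest p-values. Psmd5 was at 8.23 in cMet KO CSC, against 9.44, 9.40 and 9.59 in WT CSC (-1.24 ± 0.30; limma, adjusted p = 0.0415). Psma2 was at 8.99 in cMet KO CSC, against 9.94, 9.72 and 9.75 in WT CSC (-0.81 ± 0.20; limma, adjusted p = 0.0442). Of the immunoproteasome genes, Psmb8 was at 7.18 in cMet KO CSC, above the WT CSC pools at 6.61, 6.75 and 6.46, with a difference of 0.58 ± 0.24 that did not pass (limma, adjusted p = 0.198). These WT CSC values of Psmb8 were close to the filter on dim genes.

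The 5 calls were lost without each of the WT CSC pools, and the count was 8, 13 and 12 without WT QSC pool 1, 2 and 3. It was 20 with each array entered and the pool as a random block, a fit that adds repeat arrays and no pools. It was 9 with the first array of each pool and 3 with no filter on dim genes. Markers of other cells were higher in cMet KO CSC than in WT CSC: 7 of 10 endothelial (median 1.77; list mean 9.95, against 7.84 to 8.31), 3 of 7 fibro-adipogenic, 2 of 8 pericyte and 3 of 9 macrophage markers. Their part was not tested. Against the pool labelled cMet KO QSC, 0 of the 41 genes passed in cMet KO CSC (0% of all genes passed), with a median difference of 0.07 and none at an unadjusted p under 0.05, which 0.537% of all genes had. The pool labelled cMet KO QSC differed from WT QSC by a median of 0.04, with 0 genes past the limma test (0% of all genes passed) and none at an unadjusted p under 0.05, which 1.33% of all genes had. The response difference of cMet KO from WT was negative in 37 of the 41 genes, with a median of -0.55. None passed by limma (0.158% of all genes did), or 2, lower, with the random block, and 17 had an unadjusted p under 0.05, all lower, against 5.77% of all genes. Psmd2 had the smallest p-value, at -0.93 ± 0.26 (limma, adjusted p = 0.241). Rptor KO CSC, cMet KO CSC and WT CSC at 28 days were all compared with the same 3 WT CSC pools, so these results are not independent.

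**Figure D4:**
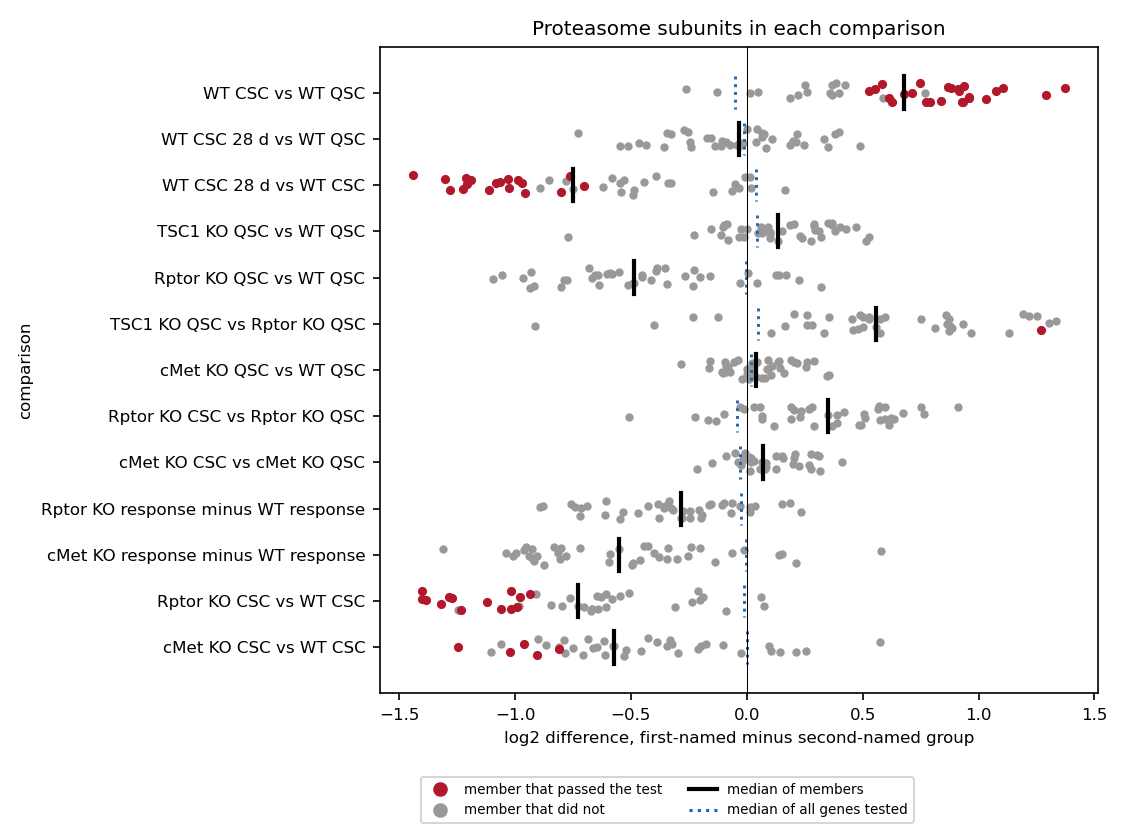
Log2 difference of each of the 41 proteasome genes (points; red, passed the limma test) in the 13 comparisons, first-named minus second-named group, with the median of the 41 genes (black bar) and of all genes tested (blue dotted bar). The median of the 41 genes is 0.68 in WT CSC against WT QSC and -0.75, -0.73 and -0.57 in the 3 comparisons that set a single pool against WT CSC.

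The leading genes of each class had these levels in all the single pools. Psmd10 was at 8.03 in WT CSC at 28 days, 8.20 in TSC1 KO QSC, 8.24 in Rptor KO CSC, 7.33 in Rptor KO QSC, 8.51 in cMet KO CSC and 8.23 in cMet KO QSC. Psmd5 was at 8.29 in WT CSC at 28 days, 8.62 in TSC1 KO QSC, 8.08 in Rptor KO CSC, 7.31 in Rptor KO QSC, 8.23 in cMet KO CSC and 8.17 in cMet KO QSC. Psma2 was at 8.77 in WT CSC at 28 days, 9.17 in TSC1 KO QSC, 8.87 in Rptor KO CSC, 8.30 in Rptor KO QSC, 8.99 in cMet KO CSC and 8.78 in cMet KO QSC. For these 3 genes all 6 pools lay below the lowest WT CSC pool. They were named for a small p-value in WT CSC against WT QSC, so this partly follows from the choice. The share of all genes with this order was not counted. Psmc1 was at 8.98 in WT CSC at 28 days, 9.38 in TSC1 KO QSC, 9.24 in Rptor KO CSC, 8.85 in Rptor KO QSC, 9.19 in cMet KO CSC and 9.10 in cMet KO QSC. Psmb3 was at 11.34 in WT CSC at 28 days, 12.08 in TSC1 KO QSC, 11.82 in Rptor KO CSC, 11.15 in Rptor KO QSC, 12.12 in cMet KO CSC and 11.82 in cMet KO QSC. Psme3 was at 10.63 in WT CSC at 28 days, 10.69 in TSC1 KO QSC, 10.41 in Rptor KO CSC, 9.81 in Rptor KO QSC, 10.65 in cMet KO CSC and 10.62 in cMet KO QSC. These 3, named in the same way, also lay below every WT CSC pool in all 6 single pools. Among the 6 single pools, the lowest value of each was that of the pool labelled Rptor KO QSC. Psmb8 was at 6.60 in WT CSC at 28 days, 6.79 in TSC1 KO QSC, 6.68 in Rptor KO CSC, 7.19 in Rptor KO QSC, 7.18 in cMet KO CSC and 6.87 in cMet KO QSC. Psmb8 did not follow this order: 4 of the 6 pools stood above every WT CSC pool, at 6.61, 6.75 and 6.46. These WT CSC values of Psmb8 were close to the filter on dim genes. Psmc6 was at 10.30 in WT CSC at 28 days, 10.63 in TSC1 KO QSC, 9.66 in Rptor KO CSC, 9.38 in Rptor KO QSC, 10.62 in cMet KO CSC and 10.42 in cMet KO QSC. Psmc6, which did not rise in WT CSC, was lowest in the pools labelled Rptor KO QSC and Rptor KO CSC.

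Of 12 tested assembly factors and associated proteins of the proteasome, 3 rose in WT CSC against WT QSC, where 10.6% of all genes rose. Uchl5, a deubiquitinase of the regulatory particle, had 8.78, 8.89 and 8.91 in WT CSC, against 7.97, 8.15 and 7.71 in WT QSC (0.92 ± 0.14; limma, adjusted p = 0.00361). Usp14, another deubiquitinase of the particle, rose by 0.72 ± 0.13, and Psmg1, a chaperone of the alpha ring, by 0.64 ± 0.16. Of 11 genes of the transcription programme and of substrate shuttling, 1 rose, a share near that of all genes: Nploc4, a partner of Vcp, at 0.54 ± 0.16 (limma, adjusted p = 0.048). Ubqln4 and Rad23b, which carry ubiquitinated substrates, differed by 0.66 ± 0.21 and 0.42 ± 0.15 and did not pass. The transcription factor gene Nfe2l1 itself differed by 0.08 ± 0.15 (limma, adjusted p = 0.744). Of the muscle ubiquitin ligases Fbxo30 fell by 0.43 ± 0.13 (limma, adjusted p = 0.0486), and Fbxo32 and Fbxo21 did not pass. Of the ubiquitin and ubiquitin-activating genes, only Uba6 was tested, at -0.18 ± 0.24, and the thymus subunit Psmb11 was at -0.21 ± 0.14, neither past the test.

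In the antigen processing list 1 of 7 tested genes fell in WT CSC and none rose, where 7.36% of all genes fell and 10.6% rose. Irf1, an interferon-induced transcription factor, had 9.73, 9.94 and 9.74 in WT CSC, against 11.00, 10.90 and 10.60 in WT QSC (-1.03 ± 0.15; limma, adjusted p = 0.00241). Its groups did not overlap. B2m, the light chain of class I molecules, and Erap1, a peptide-trimming enzyme, differed by -0.47 ± 0.14 and -0.41 ± 0.13 and just missed the threshold (limma, adjusted p = 0.0519 and 0.0535). Tap1, the neighbour of Psmb9, differed by -0.27 ± 0.17. In TSC1 KO QSC against WT QSC no gene of these lists passed. Sem1, Psmf1 and Ube3c of the associated proteins differed by 0.61 ± 0.28, 0.45 ± 0.29 and 0.32 ± 0.23, and Irf1, Nlrc5 and Tap1 by 0.50 ± 0.21, -0.40 ± 0.24 and 0.36 ± 0.24. Of the shuttle list Ufd1, Ubqln2 and Nfe2l2 differed by 0.38 ± 0.24, 0.28 ± 0.22 and -0.21 ± 0.18. Fbxo32, a ubiquitin ligase of muscle atrophy, was at 9.48 in TSC1 KO QSC, against 8.89, 8.59 and 8.51 in WT QSC (0.82 ± 0.22; limma, adjusted p = 0.372).

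Several probesets served Psma3 (3 of them) and Psma5, Psmb3, Psmc1 and Psmd2 (2 each), and the brightest was used. The WT difference had the same sign in every probeset of these genes, and the widest gap was in Psma5, with 0.91 in the probeset used and 0.62 in the other. Whether such probesets also read near-identical copies of the genes elsewhere in the genome was not tested.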

How the data were processed

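Per the submitters' processing notes, the authors deposited log2 values made by RMA (background correction, quantile normalization and probeset summary) in Affymetrix Expression Console. Not given in the sources used here are its version, the library files and the genome build. Labelling started from 100 ng of total RNA per array, per the labels. A probeset was named only where the platform annotation gave it exactly 1 symbol (21789 of 35556 probesets; 1621 had several and 12146 were not listed), and the brightest probeset stood for its gene. Technical arrays of a pool were averaged, giving 12 pools.

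Genes with a mean at or above the 30th percentile (log2 6.45) were tested with limma 3.58.1 (R 4.3.3): a group means model over all pools, 13 contrasts, moderated statistics, Benjamini-Hochberg adjustment over 13956 genes and a threshold of 0.05. The spread came from the WT pools alone, with 4 residual degrees of freedom (9.01 after moderation). The number of arrays, and of pools, limits the precision. A promoter motif that was searched is not reported here. Members and gene lists were chosen with earlier results of these data known. Named genes were, per class, those with the smallest p in WT CSC against WT QSC, the catalytic pairs, the activators, the 3 with the largest p, and up to 6 that passed in each other comparison. The pipeline was tested on simulated data. Figures were drawn with matplotlib 3.10.9. Alternatives are listed in the closing section.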

Additional observations from a re-analysis of the deposited data

How the results depend on the processing

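Each count of the 41 genes was recomputed under up to 16 alternatives. In WT CSC against WT QSC it ranged over 16 to 26 without single pools, and 23 of the 25 calls held under all the other alternatives; Psmb1 was lost with no filter and with trend and robust options, and Psmb6 with no filter. The deviations of same-numbered WT pools correlated at 0.32, -0.03 and -0.03, where those of differently numbered pools ranged from -0.31 to 0.32. With the number as a replicate block 27 genes passed. WT CSC at 28 days against WT CSC gave 11 with no filter and 4 to 21 without single pools. TSC1 KO QSC against Rptor KO QSC gave 3 with the first array of each pool, 0 with no filter and 0 to 3 without single pools. Rptor KO CSC against WT CSC gave 0 to 20 without single pools. cMet KO CSC against WT CSC gave 9 with the first array of each pool, 3 with no filter and 0 to 13 without single pools. With all arrays and the pool as a random block (correlation 0.60) the counts were 1 in TSC1 KO QSC and 5 in Rptor KO QSC against WT QSC, 12 in TSC1 KO QSC against Rptor KO QSC, 1 in Rptor KO CSC against Rptor KO QSC, 2 in the cMet KO response against the WT response, 25 in Rptor KO CSC and 20 in cMet KO CSC against WT CSC. This fit takes repeat arrays of a pool as observations, so its larger counts do not rest on more pools. The signs of small differences turned: Psmb10 minus Psmb7 ranged over -0.32 to 0.020 without single pools, Psmc6 over -0.072 to 0.22 and Psme1 over -0.12 to 0.10, and Psme1 was -0.019 after repeated quantile normalization and -0.045 with first arrays. The causes were not tested. With 1 pool in 6 of the groups, calls there rest on the spread of the WT pools.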
